A study of Mus musculus with 2 samples.

Results

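The Hippo pathway and the targets of its effector YAP were examined as 10 genes, chosen by name, in cut mouse ovaries that had been cultured with ligands of the tachykinin receptors (TKRs). The 10 genes were the coactivators Yap1 and Wwtr1 (TAZ), the kinases Lats1 and Lats2, the DNA-binding partners Tead1 and Tead4, and the target genes Ctgf (current symbol Ccn2), Cyr61 (current symbol Ccn1), Ankrd1 and Amotl2. They were represented by 13 of the 55674 probes on the array, found through the RefSeq transcript that each probe names. The array as a whole paired probes with 20658 genes.

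Ovaries of 2-week-old mice were cut lengthwise into matching portions and cultured for 3 days at 37 °C. One group received TKR agonists and the other TKR antagonists, that is, agonists or antagonists of TACR1, TACR2 and TACR3, each ligand at 1 μM. Total RNA of each group was labelled with Cy3 and hybridized to 1 single-colour array. The authors state that the cut served to limit errors that different ovaries would bring. The strain of these mice, the number of portions behind each RNA and whether portions of the same ovary went to both groups are not given in the sources used here. Every ovary in both groups had been cut, and uncut or untreated ovaries were not analysed here, so an effect of cutting that both groups share does not appear in any ratio below. For the same reason, a ratio does not tell whether the agonists raised a signal or the antagonists lowered it. Each group is a single array without a replicate, so values are described and no statistical test was made.

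In the Hippo pathway the kinases MST1 and MST2 activate LATS1 and LATS2, which phosphorylate YAP and TAZ and keep them out of the nucleus. When the kinases are inactive, YAP and TAZ enter the nucleus, bind TEAD factors and switch on genes such as Ctgf, Cyr61, Ankrd1 and Amotl2. In the ovary, cutting the tissue is known to promote actin polymerization, to weaken Hippo signaling and to raise CCN growth factors, and the approach has been used to stimulate follicle growth. An array measures transcripts, and it does not show where YAP is in the cell or whether it is phosphorylated.

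Of the 10 genes, Ctgf alone was at least 2-fold different between the arrays. Its signal was 5.17-fold higher with the agonists, whereas Yap1, Wwtr1, Lats1, Lats2, Tead1, Cyr61 and Amotl2 had log2 ratios between -0.25 and 0.29. Tead4 and Ankrd1 were not well above background on either array. A log2 ratio here is the log2 signal with agonists minus that with antagonists, after each array was reduced by the 75th percentile of its signals, so 1 stands for a 2-fold difference.

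The promoters of the target genes are shown first because TEAD factors act there. The 250 bases upstream of the start site were taken from RefSeq (build GRCm38.p6) and searched on both strands for the TEAD motif GGAATG, which reads CATTCC on the other strand. Of the 10 genes, 7 matched an entry; the promoters of Ctgf, Tead1 and Tead4 were not used here. Each sequence runs 5′ to 3′ on the strand of its gene and ends at the base before the start site, and capitals mark the TEAD motif. Cyr61 lies on the minus strand at chr3:145649986-145650235, Ankrd1 on the minus strand at chr19:36119845-36120094 and Amotl2 on the plus strand at chr9:102717554-102717803.
Cyr61: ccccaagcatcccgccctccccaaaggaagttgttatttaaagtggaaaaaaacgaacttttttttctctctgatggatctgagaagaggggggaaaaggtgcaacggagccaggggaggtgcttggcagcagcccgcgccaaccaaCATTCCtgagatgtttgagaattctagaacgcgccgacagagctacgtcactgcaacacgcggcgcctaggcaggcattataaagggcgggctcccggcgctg
Ankrd1: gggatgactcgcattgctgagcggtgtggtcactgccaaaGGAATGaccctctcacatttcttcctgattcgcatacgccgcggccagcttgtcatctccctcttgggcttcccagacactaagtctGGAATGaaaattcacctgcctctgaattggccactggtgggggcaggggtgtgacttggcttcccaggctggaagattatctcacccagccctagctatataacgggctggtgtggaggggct
Amotl2: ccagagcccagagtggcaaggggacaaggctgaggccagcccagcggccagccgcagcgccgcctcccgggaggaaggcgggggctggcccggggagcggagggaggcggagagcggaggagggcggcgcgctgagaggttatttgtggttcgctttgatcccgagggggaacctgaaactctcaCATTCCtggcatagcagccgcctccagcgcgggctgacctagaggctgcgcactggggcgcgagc

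The motif begins 103 bases before the start site in Cyr61 and 65 bases before it in Amotl2. Ankrd1 holds the motif at 2 positions, 210 and 123 bases before the start site. The windows of Yap1 and Wwtr1 also hold it, and those of Lats1 and Lats2 do not, so 5 of the 7 genes matched. Over all 32851 promoters of the same length, 12.6% hold the motif. The AP-1 motif TGANTCA, which often lies beside TEAD sites, was not in any of these windows, and 6.75% of all promoters hold it. A match of letters is a description and does not show that a factor binds.

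Ctgf encodes a secreted matrix protein of the CCN family and is a widely used readout of YAP activity. Its probe, for the transcript NM_010217, had a processed signal of 5100 ± 510 with the agonists and 834 ± 83.5 with the antagonists, where the error is the image analysis software's own estimate for the spot. For bright spots this error is a near-constant share of the signal, so the software errors of their log2 ratios are all near 0.20. Both spots were well above background, and neither was marked as an outlier. The log2 ratio was 2.37 with a software error of 0.20, an error that the software assigns to a spot and that leaves out how ovaries vary. The probe was printed once on each array, so this value rests on 1 spot per array. Of the 15258 genes well above background on both arrays, 51 (0.334%), Ctgf included, had a ratio at least as high.

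Cyr61, a member of the same family as Ctgf and also a secreted matrix protein, was measured by the probe for NM_010516. The agonist array gave it a processed signal of 487 ± 48.9 and the antagonist array 465 ± 46.7, so the log2 ratio was -0.17 (software error 0.20). The log2 ratio of Ctgf exceeded that of Cyr61 by 2.55, with a combined software error of 0.29. The signals of Cyr61 were close on both arrays, whereas those of Ctgf were far apart.

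Amotl2, a scaffold protein that binds YAP and is itself induced by it, had processed signals of 638 ± 63.9 with the agonists and 643 ± 64.5 with the antagonists. Its log2 ratio of -0.25 (software error 0.20) was the lowest among the 8 members well above background, and 26.9% of all probes well above background on both arrays had a ratio at or below it. The log2 ratio of Ctgf exceeded it by 2.62, with a combined software error of 0.29.

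Ankrd1, a nuclear ankyrin repeat protein best known from heart muscle, was close to the detection limit. Its signals were 4.44 ± 3.96 with the agonists and 7.17 ± 4.37 with the antagonists, against a lowest signal well above background of 18.1 and 19.9 on these arrays. Both values lay below that limit, so no fold is given. The spots were still positive and significantly brighter than their local background by the software's weaker criterion, which all 13 probes met on both arrays.

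**Figure D1:**
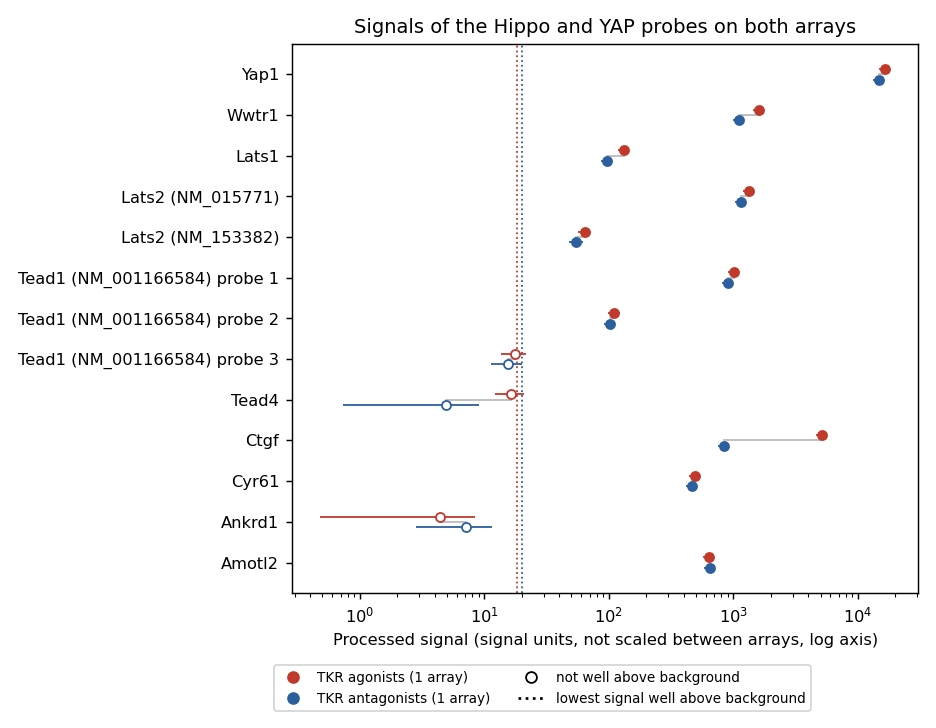
Processed signals of the 13 probes of the Hippo and YAP genes (log axis, signal units before scaling between the arrays), with the agonist array in red, the antagonist array in blue and the software's error of the spot as bars. Open circles were not well above background; among the filled circles only the pair of Ctgf points, 5100 and 834, stands clearly apart, and signals of different probes cannot be set against each other.

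Yap1 and Wwtr1 encode the paralogous coactivators YAP and TAZ. The Yap1 probe, for NM_001171147, read 16414 ± 1641 (agonists) and 14794 ± 1479 (antagonists), which gave a log2 ratio of -0.09 (software error 0.20). The Wwtr1 probe, for NM_133784, had signals of 1600 ± 160 and 1109 ± 111, a log2 ratio of 0.29 (software error 0.20) or 1.22-fold, and 15.2% of all probes well above background on both arrays had a ratio at least as high. The ratio of Wwtr1 exceeded that of Yap1 by 0.38 with a combined software error of 0.29.

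Lats1 and Lats2 encode the kinases that phosphorylate YAP and TAZ, and Lats2 is also a YAP target that closes a feedback loop. The Lats1 probe read 132 ± 13.8 (agonists) and 96.2 ± 10.5 (antagonists), which gave a log2 ratio of 0.21 (software error 0.22). Lats2 was measured by probes for 2 transcripts. The brighter one, for NM_015771, had signals of 1336 ± 134 and 1152 ± 115, and the dimmer one, for NM_153382, had 64.1 ± 7.81 and 54.7 ± 7.25. Their log2 ratios were -0.03 (software error 0.20) and -0.01 (software error 0.26), so both Lats2 probes gave nearly the same signal on both arrays after scaling.

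Tead1 and Tead4 encode DNA-binding partners of YAP and TAZ. All 3 Tead1 probes name the transcript NM_001166584. The brightest read 1009 ± 101 (agonists) and 904 ± 90.5 (antagonists), for a log2 ratio of -0.08 (software error 0.20), and the next had 110 ± 11.8 and 102 ± 11.2, a log2 ratio of -0.13 (software error 0.22). The third, with signals of 17.6 ± 4.09 and 15.6 ± 4.27, was not well above background on either array. Tead4 had 1 probe, for NM_011567, with signals of 16.5 ± 4.28 and 4.90 ± 4.17. These are below the limit on both arrays, so the higher agonist value of Tead4 is given without a fold.

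Apart from Ctgf, the members lay among the bulk of all genes. Of the 8 members well above background on both arrays, 1 (12.5%) reached a 2-fold higher signal with the agonists, where 4.01% of the 15258 genes were (2.69% of the 33073 probes). No member was at least 2-fold lower, where 0.577% of genes and 0.705% of probes were. The median log2 ratio of the 8 members was -0.06, beside -0.10 over all genes, and 6 of the 8 lay above the median of all genes. Yap1 and Tead1 lay only just above it. The count was 4 of 8 when the probes of a gene were averaged, and 5 of 8 when dim values were raised to the detection limit. Of the 10 member probes well above background, 7 had a ratio within 1 software error of 0, and only that of Ctgf was more than 2 errors away from 0. The signs of the small ratios depend on the scaling. With the 75th percentile, 3 of the 8 members were positive, beside 37.7% of all genes. It was 8 of 8 when the arrays were scaled on the spike-in controls, which moved the median of all genes from -0.10 to 0.18. Ctgf lay between 2.31 and 2.65 in all settings tried. Settings for spots, averaging of probes and dim signals left it at 2.37, and several scalings add the same constant to every gene. That range therefore does not measure robustness.

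**Figure D2:**
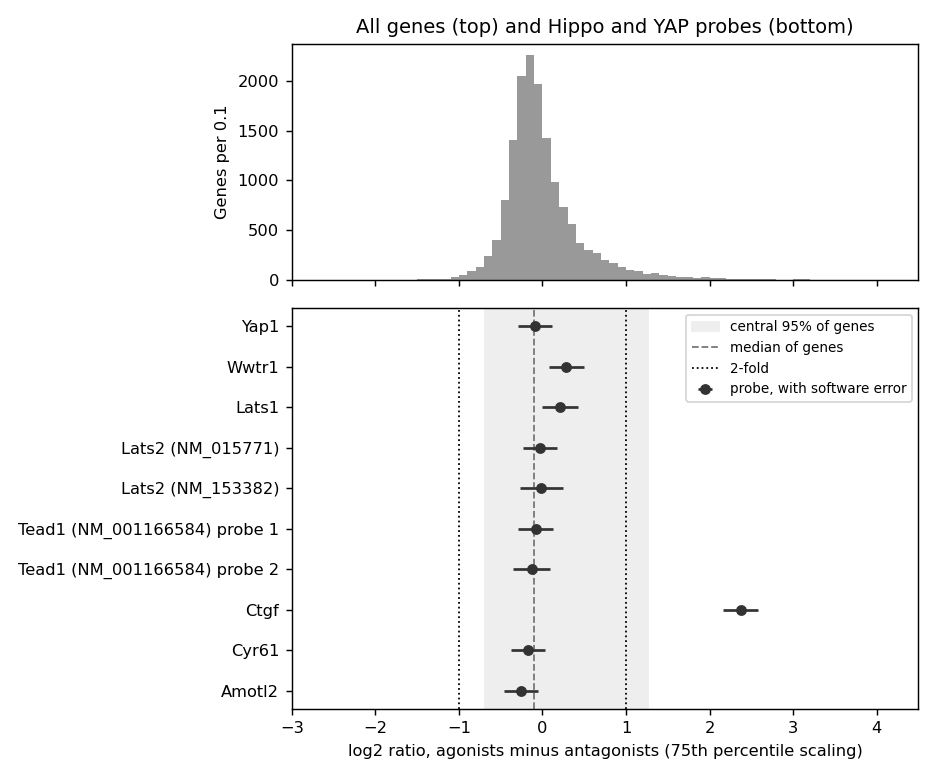
Top, number of genes per 0.1 of log2 ratio (agonists minus antagonists) for the 15258 genes well above background on both arrays. Bottom, log2 ratios of the 10 member probes well above background with the software's error as bars; the grey band is the central 95% of genes, from -0.69 to 1.27, the dashed line their median (-0.10) and the dotted lines 2-fold; Ctgf at 2.37 is outside the band and the other 9 probes are inside it.

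**Figure D3:**
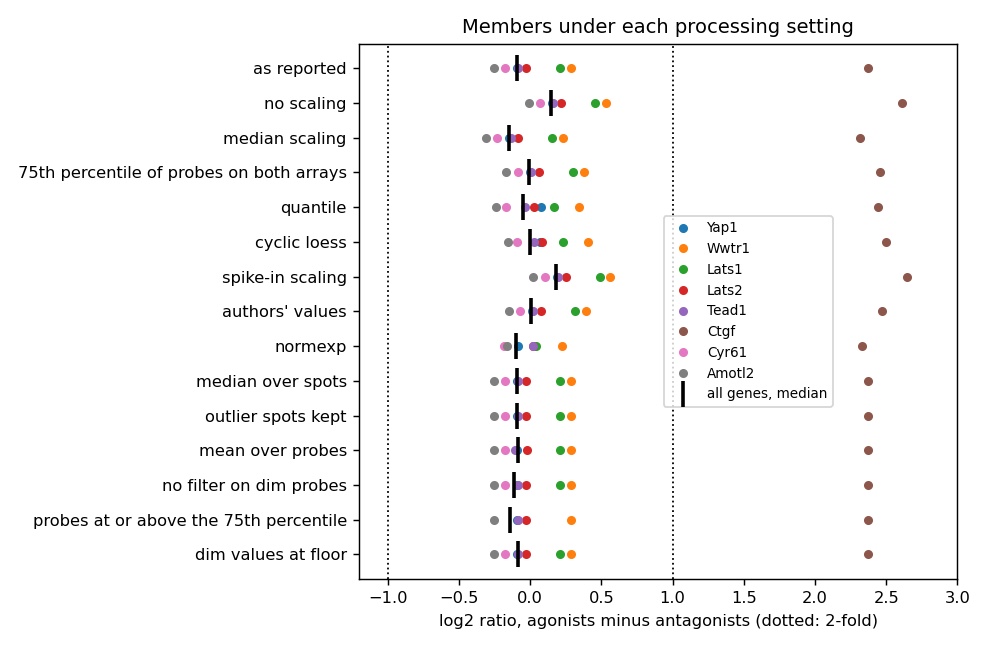
Log2 ratios of the 8 members well above background under each processing setting (rows; the row for bright probes leaves out Lats1 and Cyr61), with the median of all genes as a black bar and 2-fold as dotted lines. Ctgf lies between 2.31 and 2.65 in every row, and the other 7 genes lie between -0.31 and 0.56. Several rows leave Ctgf unchanged by design.

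The other genes of the pathway lay near the bulk of all genes. Of 22 genes upstream of YAP, 21 were well above background on both arrays, and none was at least 2-fold higher or lower, where 4.01% and 0.577% of all genes were, so that a count of 0 among 21 is near the share over all genes. Their median log2 ratio was -0.12, beside -0.10 over all genes. Of the 21, 6 were positive and 15 negative, where 37.7% of all genes were positive. The list's median was 0.12 unscaled and 0.16 on the spike-in scale. The core kinases Stk3 and Stk4, which encode MST2 and MST1, had log2 ratios of -0.14 and -0.10, and their adaptor Sav1 had 0.02. A second, dimmer Stk4 probe gave -0.43, and the probes of the kinases Taok2 (-0.17 and 0.64) and Map4k4 (-0.13 and 0.29) disagreed in sign. The highest were Rassf1, a Ras association domain tumor suppressor that binds MST kinases, at 0.74, and the protocadherin Dchs1, at 0.45. The lowest were Amot, the founding member of the Amotl2 family, at -0.33, and the LATS cofactor Mob1b, at -0.32; a second Mob1b probe gave -0.36. The brightest probes of Stk3, Stk4, Sav1, Rassf1, Dchs1, Amot and Mob1b each have a software error of 0.20 to 0.23. Frmd6 was not well above background on either array.

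Among the other nuclear partners, Tead2 had a log2 ratio of 0.16 (another probe 0.30), Tead3 of -0.02, and the TEAD-binding cofactors Vgll4 and Vgll2 of -0.05 and -0.40. The software error was 0.20 for Tead2, 0.24 for Tead3, 0.21 for Vgll4 and 0.26 for Vgll2. Vgll1 and Vgll3 were not well above background on either array.

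To see whether Ctgf was alone among YAP targets, 16 further genes of a published YAP and TAZ target signature were examined. Of these, 14 were well above background on both arrays, 2 were at least 2-fold higher with the agonists (4.01% of all genes were), and none was at least 2-fold lower (0.577% of all genes were). Their median log2 ratio was 0.17, beside -0.10 over all genes. Of the 14, 8 were positive and 6 negative, where 37.7% of all genes were positive. The median had the opposite sign, -0.17, when dim genes, those below the 75th percentile, were left out.

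The target genes that were at least 2-fold higher were Igfbp3 and Nt5e. Igfbp3, which encodes a secreted binding protein of insulin-like growth factors, read 5821 (agonists) and 1058 (antagonists), for a log2 ratio of 2.22 (software error 0.20) or 4.65-fold, and 0.465% of genes had a ratio at least as high. Nt5e, which encodes the CD73 ectonucleotidase that makes adenosine, had signals of 952 and 223, a log2 ratio of 1.86 (software error 0.21) or 3.62-fold, and 0.891% of genes had a ratio at least as high. Of the 10 genes of this list with a promoter entry, 2 (Axl and Crim1) hold the letters GGAATG or CATTCC in the window. Igfbp3 and Nt5e do not, and 12.6% of all promoters do. Rbms3, counted as a single gene, has 2 windows, and both lack the letters. At the other end, Gadd45a, a growth arrest and DNA damage gene, had signals of 852 and 1174 and a log2 ratio of -0.70 (software error 0.20). F3 (tissue factor), which starts blood coagulation, had -0.35 with its brightest probe and 0.47 with another, so its probes disagree in sign. Myof and Foxf2 were not well above background on either array.

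The rest of the CCN family, secreted proteins built like Ctgf and Cyr61, was mixed. Wisp1 (current symbol Ccn4), known as a Wnt-induced gene, read 1210 (agonists) and 522 (antagonists), for a log2 ratio of 0.97 (software error 0.20); its other probe gave 1.07. Wisp2 (Ccn5) was well above background with the agonists only, with signals of 76.9 and 9.62. Taking the lowest signal well above background on the antagonist array in place of the dim value, the agonist signal of Wisp2 was at least 3.27-fold higher. Nov (Ccn3) had a log2 ratio of -0.00 (software error 0.26), and Wisp3 (Ccn6) was not well above background on either array. The median log2 ratio over Nov and Wisp1 was 0.48, and it was 0.97 with Wisp2 at its bound.

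Actin polymerization acts on YAP and, through the MRTF coactivators, on serum response factor (SRF), so 12 genes of this system were examined. All 12 were well above background on both arrays and none was at least 2-fold higher or lower, where 4.01% and 0.577% of all genes were, so that 0 of 12 is near the share over all genes. Their median log2 ratio was 0.14, beside -0.10 over all genes, and 8 of 12 were positive by their brightest probe, beside 37.7% of all genes. The median was 0.08 when the probes of a gene were averaged. The highest were Tagln (0.81, software error 0.20) and the myosin light chain Myl9 (0.68, software error 0.20). The lowest were the cytoplasmic actin Actg1 (-0.26, software error 0.20) and the tropomyosin Tpm1 (-0.20, software error 0.20), whose other probes ranged from -0.20 to 0.19. The regulators themselves differed less, with log2 ratios of -0.14 for Srf, 0.02 for Mrtfa (another probe -0.09) and 0.08 for Mrtfb. The probes of Vcl (0.21 and -0.07) also disagreed in sign. Tagln, Acta2 and Cnn1 are also markers of smooth muscle.

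**Figure D4:**
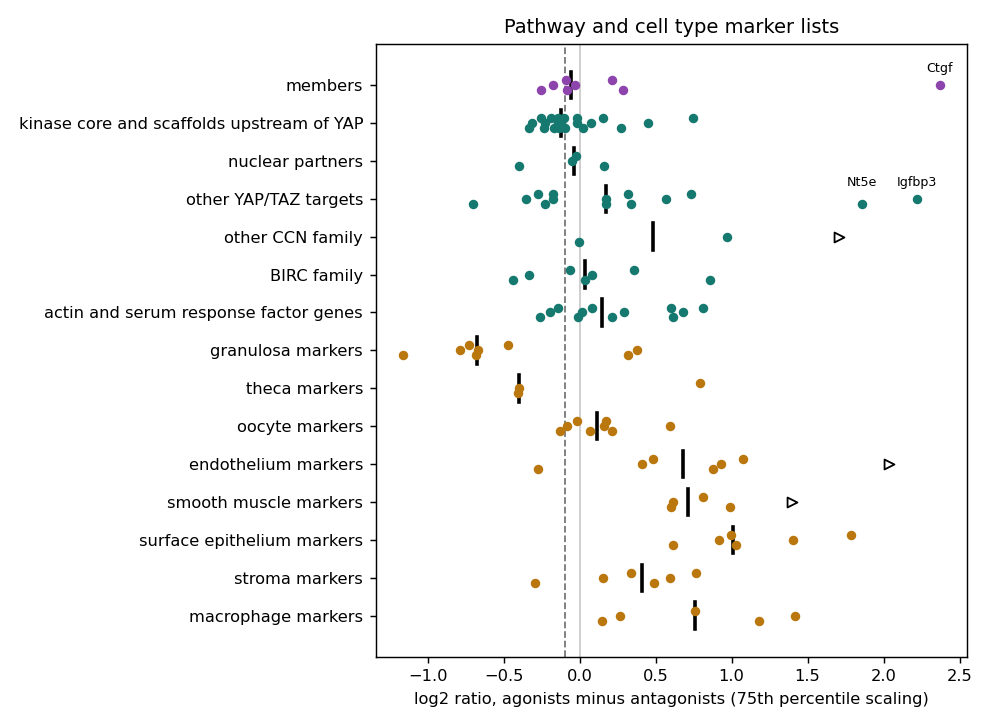
Log2 ratios (agonists minus antagonists) of the genes well above background on both arrays, by list: the members in purple, pathway lists in green and cell type marker lists in orange. Black bars are list medians, the dashed line is the median of all genes (-0.10), and open triangles are lower bounds for genes well above background with the agonists only; Ctgf, Igfbp3 and Nt5e lie beyond the other points of their lists, and the surface epithelium, macrophage, smooth muscle, endothelium and stroma markers lie mostly to the right of the median of all genes.

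The defining markers of the labelled tissue were present: all 8 granulosa genes and all 8 oocyte genes listed were well above background on both arrays. Marker genes of several ovarian cell types also differed between the arrays. In a mixed tissue, fewer cells of a type and less RNA per cell cannot be told apart. Over all genes the median log2 ratio was -0.10 and 37.7% were positive. The median was 1.01 for 6 surface epithelium genes (6 of 6 positive), 0.71 for 4 smooth muscle genes (4 of 4 positive; 0.81 with Des at its bound), 0.76 for 5 macrophage genes (5 of 5 positive), 0.68 for 6 endothelium genes (5 of 6 positive; 0.88 with Tek at its bound) and 0.41 for 6 stroma genes (5 of 6 positive). It was -0.67 for 8 granulosa genes (2 of 8 positive), -0.40 for 3 theca genes (1 of 3 positive; 0.19 when dim genes were left out) and 0.11 for 8 oocyte genes (5 of 8 positive). At least 2-fold higher were 3 of 6 surface epithelium genes (Lrrn4, Krt19 and Krt18) and 2 of 5 macrophage genes (Adgre1 and C1qa). So was 1 of 6 endothelium genes (Cldn5), where 4.01% of all genes were. Among the 8 granulosa genes 1, Inhbb, was at least 2-fold lower with a log2 ratio of -1.17, where 0.577% of all genes were. Another Adgre1 probe gave 0.72, below 2-fold. The brightest and another probe disagreed in sign for Foxl2 (0.32 and -0.37), Kdr (-0.27 and 0.38) and Star (-0.40 and 0.01). Csf1r had 0.15, and its other probes ranged from -0.09 to 0.04.

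In units of each array's 75th percentile, the summed level of the 6 surface epithelium genes was 36.2 (agonists) and 17.0 (antagonists). It was 37.9 and 23.2 for 6 smooth muscle genes, 68.6 and 58.0 for 7 endothelium genes, 368 and 310 for 6 stroma genes, 11.9 and 9.42 for 5 macrophage genes, 175 and 216 for 8 granulosa genes, 24.9 and 31.8 for 4 theca genes, and 256 and 262 for 8 oocyte genes. Each sum adds signals of different probes, so its brightest probes set most of it, such as Gdf9 among the oocyte genes. The endothelium sum is mostly Egfl7 and Kdr, and Kdr had a log2 ratio of -0.27 (another probe 0.38). Lhcgr of the theca list and Lmod1 of the smooth muscle list were not well above background on either array, and Insl3 and Cd68 found no probe. None of the 46 marker genes well above background on both arrays reached the log2 ratio of Ctgf, and the highest, 1.79 (software error 0.35), was that of the surface epithelium gene Lrrn4. The antagonist signal of Lrrn4, 22.1, was close to 19.9, the lowest signal well above background on that array. The endothelium gene Tek and the smooth muscle gene Des were well above background with the agonists only and were at least 4.10-fold and at least 2.63-fold higher, and such a lower bound does not place Tek below the 5.17-fold of Ctgf or the 4.65-fold of Igfbp3. The part of these cell types in the ratios of Ctgf, Igfbp3, Nt5e and the CCN genes was not tested.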

How the data were processed

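The members and gene lists were chosen with earlier results of these data known. The authors had 2 single-colour SurePrint G3 mouse arrays, which were on the same slide, read with Agilent Feature Extraction 10.10.1.1 and deposited linear intensity values of single spots, background-subtracted by the software and not scaled between arrays, with an error estimate and marks for outliers and for signal well above background. They also deposited summary intensities, found to be the processed signal times a constant per array (1.99 for agonists, 2.19 for antagonists). Leaving out control spots, 59305 spots remained, of which 65.4% (agonists) and 61.6% (antagonists) were well above background and 0 were saturated. The number of arrays limits the precision.

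From these files, the 75th percentile of each array (672 and 569) was subtracted from the processed signals on the log2 scale, outlier spots were left out, and repeat spots were averaged. Over 50% of a probe's spots had to be well above background for the probe to count as such. The RefSeq table for GRCm38.p6 was used for names and promoters and paired 27230 of the 55674 probes with a gene. A gene was represented by its brightest probe. For 285 probes printed at 10 spots and well above background at all of them, the median SD of the unscaled log2 ratio between spots was 0.07, which is smaller than the software error of a spot. Every member probe is reported; of the other pathway lists, the 2 highest and 2 lowest genes, any gene detected on 1 array only, and lists of 6 or fewer in full. Cell type markers are given as list summaries, with the genes past 2-fold or detected on 1 array only named. Markers whose probes disagreed in sign are named as well. Stk3, Stk4, Sav1, Srf, Mrtfa, Mrtfb, Birc5 and Xiap are named for their roles, outside this rule and after their values were seen. Taok2, Map4k4 and Vcl, also outside it, are named because their probes disagreed in sign. Alternatives were other scalings, the authors' values, normexp (offset 50, on the median spot signal), averaging of spots or probes by other means, filters for dim signals, and 4-fold and 1.5-fold thresholds. Python 3.11.15, numpy 2.4.6, pandas 2.3.3, R 4.3.3 and limma 3.58.1 were used, and the calculation was tested on simulated data.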

Additional observations from a re-analysis of the deposited data

How the results depend on the processing

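No paired analysis was possible because the design holds a single array per group, without any test to pair. Among the members, Ctgf alone was at least 2-fold higher in all settings except without a filter for dim signals, where 2 members were, the other being Tead4, whose signals are below the detection limit. Its ratio of 2.37 became 2.61 unscaled and 2.65 on the spike-in scale. The median log2 ratio of the members, -0.06, became 0.19 unscaled and 0.22 on the spike-in scale, and the median of all genes moved from -0.10 to 0.15 and 0.18. Both scalings add a constant to every ratio. The 890 probes at least 2-fold higher and 233 lower became 1499 and 98 unscaled, 1625 and 88 on the spike-in scale, 410 and 60 after normexp, 3339 and 2333 unfiltered, 254 and 33 for bright probes (mean signal from the 75th percentile up), 127 and 18 at 4-fold, and 2299 and 1620 at 1.5-fold. The number lower was 149 in the authors' values and 450 where dim values were set to the floor. The higher probes made up 79.3% of those past 2-fold as reported, 93.9% unscaled, 94.9% on the spike-in scale, 88.1% in the authors' values, 87.2% after normexp, 88.5% for bright probes and 58.9% unfiltered. Of 306 values of single members and list medians under the alternatives, 261 moved by no more than the software error and 45 moved by more. Many of them could not move. Each member probe had 1 spot and no outlier, so settings that treat spots otherwise left the members unchanged, and the 261 do not measure robustness. As reported, only Ctgf and the surface epithelium median were past 2-fold, and 0 values past 2-fold changed sign. Smaller ratios did change sign: Lats2 in 7 of 14 settings, Tead1 in 6 and Yap1 in 5. Signal over background limits Tead4, Ankrd1 and the dimmest Tead1 probe.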

Other observations

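The BIRC family of inhibitors of apoptosis, some of which are YAP targets, was also measured. All 7 genes were well above background on both arrays, and none was at least 2-fold higher or lower, where 4.01% and 0.577% of all genes were, so that 0 of 7 is near the share over all genes. Their median log2 ratio was 0.04, beside -0.10 over all genes, and 4 of 7 were positive, beside 37.7% of all genes. The highest were Naip1 (0.86, software error 0.27), which belongs to a cluster of near-identical genes so that its probe may also read relatives, and Birc3 (0.36, software error 0.21). The lowest were Birc7 (-0.44, software error 0.32) and Birc5 (-0.33, software error 0.20), the mitotic gene survivin, whose other probes gave -0.42 and -0.37. Xiap had 0.08 (software error 0.20).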
